A study of Mus musculus with 6 samples.

Results

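Bone morphogenetic protein (BMP) signalling was followed here through 9 genes in sorted cells of injured mouse kidney. They were picked out by symbol from the 31815 gene rows of the count table, and all 9 were found on 1 row each and passed the filter on low counts. They comprise the ligand genes Bmp2, Bmp4 and Bmp7, the genes of the secreted regulators Grem1 (Gremlin 1) and Bmper, and the target genes Id1, Id2, Id3 and Id4. The cells came from the cortex and outer medulla of kidneys of male mice aged 9 to 12 weeks, of the genotype Axin2CreERT2/+:R26RtdT/+:Acta2-GFP, taken on day 6 after surgery that cut off and restored the blood flow of the kidneys (ischemia reperfusion injury, IRI). In these mice a tamoxifen-inducible Cre recombinase is expressed from the Axin2 locus and switches on the red protein tdTomato (tdT) for good, while green fluorescence (GFP) reports the smooth muscle actin gene Acta2. All animals had the injury and received tamoxifen on days 2 and 4, so no uninjured or untreated group enters the comparison. The 6 libraries are 3 of tdT+GFP+ cells (red and green) and 3 of tdT-GFP+ cells (green alone), and the labels give both sorts as taken from each of kidneys 1, 2 and 3. Red label marks cells in which Axin2, a target of canonical Wnt signalling, was active around the tamoxifen days, and it does not report Wnt activity at the time of the sort.

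BMPs are secreted dimers that bind type I and type II serine/threonine kinase receptors, which phosphorylate Smad1, Smad5 and Smad9, and these enter the nucleus with Smad4. The Id genes are among the most direct targets: their products lack a DNA-binding region and hold E proteins, the partners of tissue-specific helix-loop-helix factors, in inactive pairs. Gremlin 1 binds BMP2, BMP4 and BMP7 outside the cell and blocks them, and Bmper can hinder or help BMP signalling depending on context. In the kidney, Bmp7 is known from podocytes and tubules and for opposing injury and fibrosis, and Grem1 is a known marker of fibrotic kidney.

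Promoter windows are shown for Id2, Id3, Id4 and the antagonist Grem1, because Smad1 and Smad5 are known to bind GC-rich elements whose core is GGCGCC. RefSeq windows on GRCm38.p6, from 250 bases before to 50 bases after the RefSeq start, were found for 6 of the 9 members (Bmp4, Grem1, Bmper, Id2, Id3 and Id4). The Id2 window lies at chr12:25096043-25096342 (minus strand), the Id4 window at chr13:48260866-48261165 (plus strand), the Id3 window at chr4:136143572-136143871 (plus strand) and the Grem1 window at chr2:113758599-113758898 (minus strand). Each is written 5′ to 3′ on the gene's strand, with every GGCGCC in capitals (the motif is its own reverse complement, so 1 search covers both strands).
Id2: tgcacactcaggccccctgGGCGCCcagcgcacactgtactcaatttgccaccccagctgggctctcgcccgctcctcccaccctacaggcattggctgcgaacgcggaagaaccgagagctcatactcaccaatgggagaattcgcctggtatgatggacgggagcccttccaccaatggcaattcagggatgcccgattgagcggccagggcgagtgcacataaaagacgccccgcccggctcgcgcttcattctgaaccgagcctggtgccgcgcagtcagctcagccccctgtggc
Id4: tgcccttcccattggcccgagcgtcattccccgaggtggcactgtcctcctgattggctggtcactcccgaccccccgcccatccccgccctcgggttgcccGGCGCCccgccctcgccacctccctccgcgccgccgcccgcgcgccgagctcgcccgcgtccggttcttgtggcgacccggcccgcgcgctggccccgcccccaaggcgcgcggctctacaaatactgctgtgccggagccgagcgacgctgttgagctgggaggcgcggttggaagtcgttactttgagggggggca
Id3: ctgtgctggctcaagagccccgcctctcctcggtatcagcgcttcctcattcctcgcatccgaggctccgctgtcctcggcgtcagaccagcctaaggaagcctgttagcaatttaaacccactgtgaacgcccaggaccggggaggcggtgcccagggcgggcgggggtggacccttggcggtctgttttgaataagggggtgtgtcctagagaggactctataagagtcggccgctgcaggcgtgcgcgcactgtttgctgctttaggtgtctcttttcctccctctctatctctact
Grem1: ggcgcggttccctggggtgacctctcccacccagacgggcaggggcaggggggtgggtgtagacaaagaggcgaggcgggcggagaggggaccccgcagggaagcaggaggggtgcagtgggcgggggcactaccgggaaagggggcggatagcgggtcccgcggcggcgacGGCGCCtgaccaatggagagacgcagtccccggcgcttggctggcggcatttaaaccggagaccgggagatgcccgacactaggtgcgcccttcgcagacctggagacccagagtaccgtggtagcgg
Id2, Id4 and Grem1 held 1 match each, and the windows of Id3, Bmp4 and Bmper held none. Of 32851 RefSeq windows of the same 300 bases, 11.9% held the motif. CCAAT boxes (CCAAT or its complement ATTGG) stood 3 times in the Id2 window, 2 times in Id4 and 1 time in Grem1. The windows of Id3, Bmp4 and Bmper held none, and 37.4% of all windows held at least 1. These are letter matches in a short window, and no binding was measured in this study.

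Total counts ran from 25697348 to 33029933 per library, and levels are given as CPM (depth-normalised counts) on TMM-scaled library sizes. Acta2 had 1580 ± 166 CPM in tdT+GFP+ and 1158 ± 372 CPM in tdT-GFP+ cells, and Axin2 had 48.9 ± 17.6 and 44.9 ± 18.5 CPM (SD, n = 3 each). Marker RNA of several kidney cell types was present in every library. Summed over 16 endothelial markers it was 877 to 1505 CPM in tdT+GFP+ and 1824 to 3500 CPM in tdT-GFP+ libraries, over 12 tubule epithelial markers 573 to 941 against 848 to 2023 CPM, over 6 podocyte markers 552 to 686 against 705 to 790 CPM, over 10 pericyte and smooth muscle markers 2584 to 2951 against 2746 to 3597 CPM, over 10 resident fibroblast markers 4801 to 5537 against 5330 to 6391 CPM and over 9 macrophage markers 414 to 1541 against 303 to 909 CPM. The 5 mesothelial markers summed to 5.96 to 16.4 against 8.72 to 13.1 CPM. No marker of these lists was at 0 in all libraries. A lower level in such bulk RNA cannot tell fewer cells of a type from less RNA per cell. That the replicates came from separate animals is not stated beyond the kidney numbers.

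Between the 2 sorted populations, none of the 9 members passed the test, and Id1 stood nearest to it, being lower in the tdT+GFP+ sort. In edgeR's quasi-likelihood test over 15462 genes, 0 members and 0 genes overall (0% of those tested) had an adjusted p under 0.05. At an unadjusted p under 0.05 there was 1 member, Id1, against 10.7% of all genes, 6.97% lower and 3.71% higher. Log2 fold changes, here tdT+GFP+ minus tdT-GFP+, were negative for 8 members and positive for Bmper, with a median of -0.30 over the members and -0.000385 over all genes tested. Of the 9 members, 3 (Id1, Id2 and Id4) were lower in tdT+GFP+ cells in all 3 kidneys, as were 17.1% of all genes. Values per kidney follow the labelled numbers. Same-numbered libraries of kidneys 2 and 3 did not deviate together from their group means. Whether the numbers pair the sorts was not tested, so values per kidney carry that doubt. No member had values free of overlap between the populations, which 15.8% of all genes had, 8.6% lower and 7.23% higher.

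**Figure D1:**
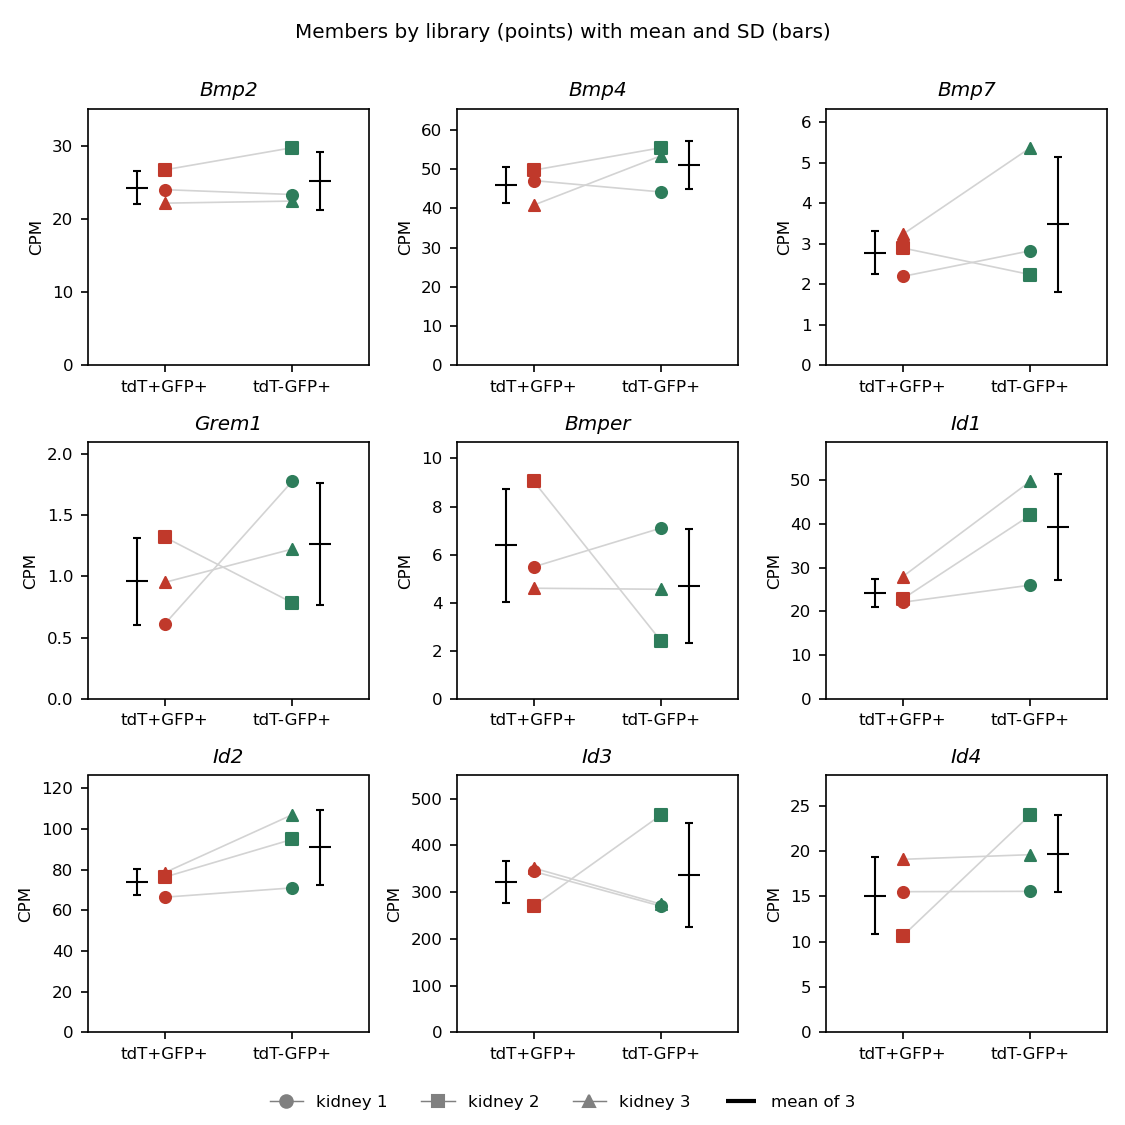
Normalised level (CPM, y axis, from 0) of each member in the 3 tdT+GFP+ (red) and 3 tdT-GFP+ (green) libraries, with grey lines joining libraries of the same kidney and black bars giving the mean and SD of 3. Id1 and Id2 slope upward from tdT+GFP+ to tdT-GFP+ in every kidney, while the lines of Id3, Grem1 and Bmper cross.

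Among the ligands, Bmp4 was the most expressed and differed little between the sorts. Bmp4 (ENSMUSG00000021835.15, GRCm38 chromosome 14, 46383520 to 46390669, minus strand) encodes a BMP of stromal and vascular cells. Its levels were 47.0, 49.7 and 40.8 CPM in tdT+GFP+ libraries 1, 2 and 3 and 44.1, 55.4 and 53.4 CPM in tdT-GFP+ libraries 1, 2 and 3. The populations overlapped, and the lowest library was tdT+GFP+ of kidney 3. edgeR estimated -0.15 on the log2 scale, with SE 0.12, interval -0.43 to 0.13 at 95% and adjusted p = 0.603. Leaving out libraries moved the estimate between -0.25 (without kidney 1) and -0.04 (without kidney 3). Its exons share 89 bases with those of Gm15217 on the other strand, and, although the libraries are strand-specific per the labels, no source used here says how strand entered the counting.

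Bmp2 (ENSMUSG00000027358.6, chromosome 2, 133552159 to 133562885, plus strand) encodes the ligand closest to BMP4. Its levels were 24.1, 26.8 and 22.2 CPM in tdT+GFP+ and 23.4, 29.8 and 22.5 CPM in tdT-GFP+ libraries 1, 2 and 3. Kidney 2 was highest and kidney 3 lowest in both sorts. On the log2 scale the difference was -0.05 (SE 0.13; 95% limits -0.37 and 0.27; adjusted p = 0.888, edgeR). The count of Bmp4 was 1.84 to 1.95 times that of Bmp2 in 5 libraries and 2.37 times in the tdT-GFP+ library of kidney 3. This ratio is taken within a library and so does not depend on the scaling.

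Bmp7 (ENSMUSG00000008999.7, chromosome 2, 172868012 to 172940321, minus strand) was scarce, with 60 to 145 counts per library. The levels were 2.20, 2.90 and 3.23 CPM in tdT+GFP+ and 2.83, 2.24 and 5.38 CPM in tdT-GFP+ libraries. Only the tdT-GFP+ library of kidney 3 stood above the rest. That library also had the highest tubule, podocyte and endothelial marker sums (2023, 790 and 3500 CPM). Whether these cells carry the Bmp7 RNA was not tested. In edgeR the log2 fold change came to -0.33 with an SE of 0.36, a 95% interval of -1.20 to 0.54 and an adjusted p of 0.717, against an estimate of 0.13 without that library.

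The antagonist Grem1 was barely present and did not separate the sorts. Grem1 (ENSMUSG00000074934.3, chromosome 2, 113746164 to 113758646, minus strand) had 20, 41 and 25 counts in tdT+GFP+ and 54, 21 and 33 counts in tdT-GFP+ libraries 1, 2 and 3. On the CPM scale these were 0.610, 1.32 and 0.951 against 1.78, 0.785 and 1.22. The lowest and highest libraries came from the same kidney, number 1. edgeR estimated -0.40 on the log2 scale, with SE 0.43, interval -1.42 to 0.62 at 95% and adjusted p = 0.707, turning to 0.20 when kidney 1 was left out. The counts were few and the interval wide, but Bmper, at 64 to 281 counts, had a similar SE of 0.44. What made the interval wide was not tested.

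Grem1 was low in tdT+GFP+ libraries 1 and 3 and tdT-GFP+ library 2, whatever the sort. The same 3 libraries had the highest Axin2, at 52.8 and 64.2 CPM in tdT+GFP+ 1 and 3 and 64.2 CPM in tdT-GFP+ 2, against 27.3 to 43.0 CPM in the others. In them the adventitial fibroblast gene Pi16 was low, at 3.42 to 5.27 CPM against 42.2 to 69.8 CPM. Of the same list of fibroblast markers, Pdgfra was highest in these libraries, at 1153, 1278 and 1238 CPM against 855 to 1099 CPM, so the list did not move as one. What these libraries share was not tested.

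Bmper (ENSMUSG00000031963.8, chromosome 9, 23223076 to 23485200, plus strand) encodes a secreted BMP-binding protein related to crossveinless and was the only member with a positive fold change. Its levels were 5.49, 9.06 and 4.60 CPM in tdT+GFP+ and 7.11, 2.39 and 4.56 CPM in tdT-GFP+ libraries. Kidney 2 held both the highest and the lowest library, with a log2 difference of 1.89, while kidneys 1 and 3 had -0.37 and 0.01. On the log2 scale the difference was 0.44 (SE 0.44; 95% limits -0.60 and 1.49; adjusted p = 0.681, edgeR), and it was -0.22 without both libraries of kidney 2. The positive sign thus rested on that kidney.

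**Figure D2:**
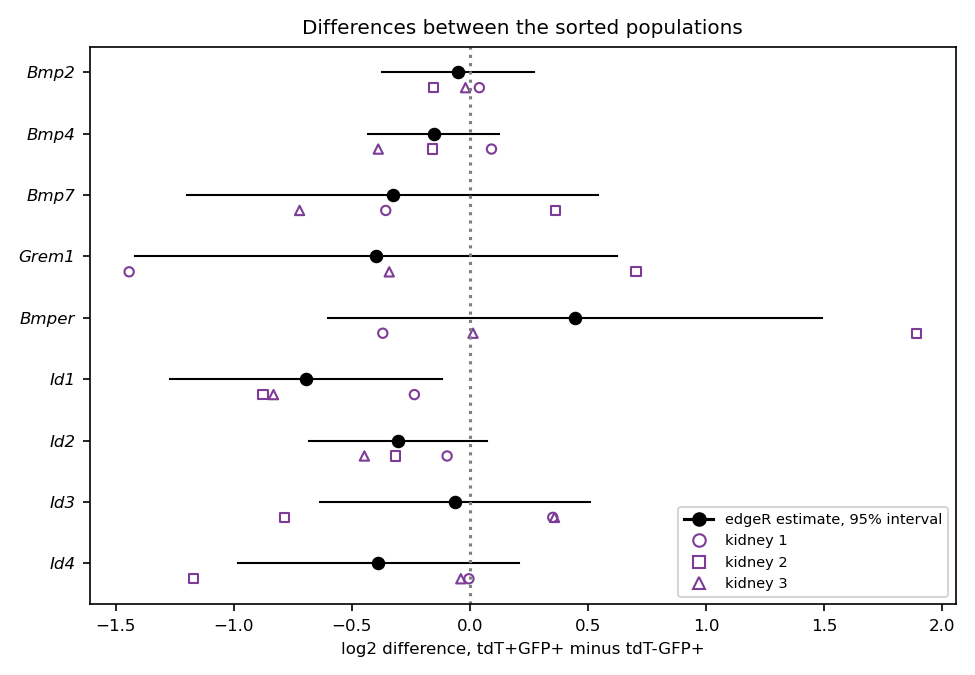
Difference of each member between the sorts on the log2 scale (x axis, tdT+GFP+ minus tdT-GFP+), as the edgeR estimate with its 95% interval (black) and as the log2 CPM difference within kidneys 1, 2 and 3 (open circle, square and triangle). The interval of Id1 alone leaves out 0, and the kidneys fall on both sides of 0 for the ligands, Grem1, Bmper and Id3.

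Of the target genes, Id1 was lower in tdT+GFP+ cells in all 3 kidneys but short of the threshold over all genes. Id1 (ENSMUSG00000042745.9, chromosome 2, 152736251 to 152737410, plus strand) had 22.1, 22.8 and 27.9 CPM in tdT+GFP+ and 26.0, 42.0 and 49.8 CPM in tdT-GFP+ libraries 1, 2 and 3. The tdT+GFP+ libraries were close together, and only tdT-GFP+ library 1 fell within their range. The means were 24.3 ± 3.18 and 39.3 ± 12.1 CPM (SD, n = 3 each). edgeR estimated -0.69 on the log2 scale (SE 0.24, 95% limits -1.27 and -0.12), with an unadjusted p of 0.0253, rank 888 of 15462, and an adjusted p of 0.440. Id1 thus ranked among the 10.7% of genes at that unadjusted level.

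The Id1 difference stayed negative whichever library was left out, from -0.48 without tdT-GFP+ replicate 3 to -0.90 without tdT-GFP+ replicate 1. The unadjusted p from edgeR rose above 0.05 when tdT+GFP+ library 1 or 2 was left out (0.0780, 0.0655), tdT-GFP+ library 2 or 3 (0.0675, 0.0747), or both libraries of kidney 2 or 3 (0.135, 0.0510). With the kidney as a replicate block in edgeR, Id1 had -0.65 (adjusted p = 0.431), and members at an unadjusted p under 0.05 numbered 2, Id1 and Id2. DESeq2 gave Id1 an adjusted p of 0.157, or 0.0954 with the block, beside 1.93% and 1.95% of genes called by DESeq2 without and with it.

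Id2 (ENSMUSG00000020644.9, chromosome 12, 25093799 to 25097140, minus strand) followed Id1 from library to library at a smaller difference. Its levels were 66.5, 76.3 and 78.5 CPM in tdT+GFP+ and 71.0, 94.9 and 107 CPM in tdT-GFP+ libraries. As for Id1, tdT-GFP+ libraries 2 and 3 were the highest of the 6, and tdT-GFP+ library 1 lay among the tdT+GFP+ libraries. In edgeR the log2 fold change came to -0.30 with an SE of 0.16, a 95% interval of -0.68 to 0.07 and an adjusted p of 0.499, against an estimate of -0.17 without tdT-GFP+ replicate 3. Across the 6 libraries log2 CPM of Id1 and Id2 correlated by r = 0.963, a description over libraries that share kidneys.

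Marker sums of other kidney cells are given beside Id1 and Id2. The summed tubule markers stood at 573, 726 and 941 CPM in tdT+GFP+ and 848, 1224 and 2023 CPM in tdT-GFP+ libraries 1, 2 and 3, the same order of the 6 libraries as Id1. That order depended on Umod, a gene of the thick ascending limb, at 121, 82.5 and 451 CPM against 353, 621 and 754 CPM. Without Umod, a choice made after seeing the data, the other 11 markers summed to 452, 643 and 489 against 495, 603 and 1269 CPM, with tdT+GFP+ library 2 second highest, where Id1 had it second lowest. The proximal tubule genes Slc34a1, Lrp2 and Slc5a2 were higher in tdT+GFP+ cells in kidneys 1 and 2 and lower in kidney 3. Their log2 differences were 1.55, 1.71 and 3.00 in kidney 2 and -1.64, -2.22 and -1.93 in kidney 3. Of the 12 tubule markers, 10 had negative and 2 had positive log2 fold changes in edgeR. Endothelial markers were at 877, 1505 and 1081 CPM against 2592, 1824 and 3500 CPM. For them tdT-GFP+ library 1 was second highest, and for Id1 it lay below tdT+GFP+ library 3. Among 9701 genes with at least 10 CPM, the 3 whose log2 CPM followed Id1 most closely were Ppip5k1, Tmprss2 and Galnt18 (Pearson r = 0.996, 0.995 and 0.994 over 6 libraries). For Id2 they were Idh3g, Eps8l2 and Car5b (r = 0.998, 0.997 and 0.997). These genes head a ranking of all 9701 over only 6 points. The part of tubule or endothelial RNA in the Id1 and Id2 differences was not tested, and the order of 6 bulk libraries cannot decide it.

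**Figure D3:**
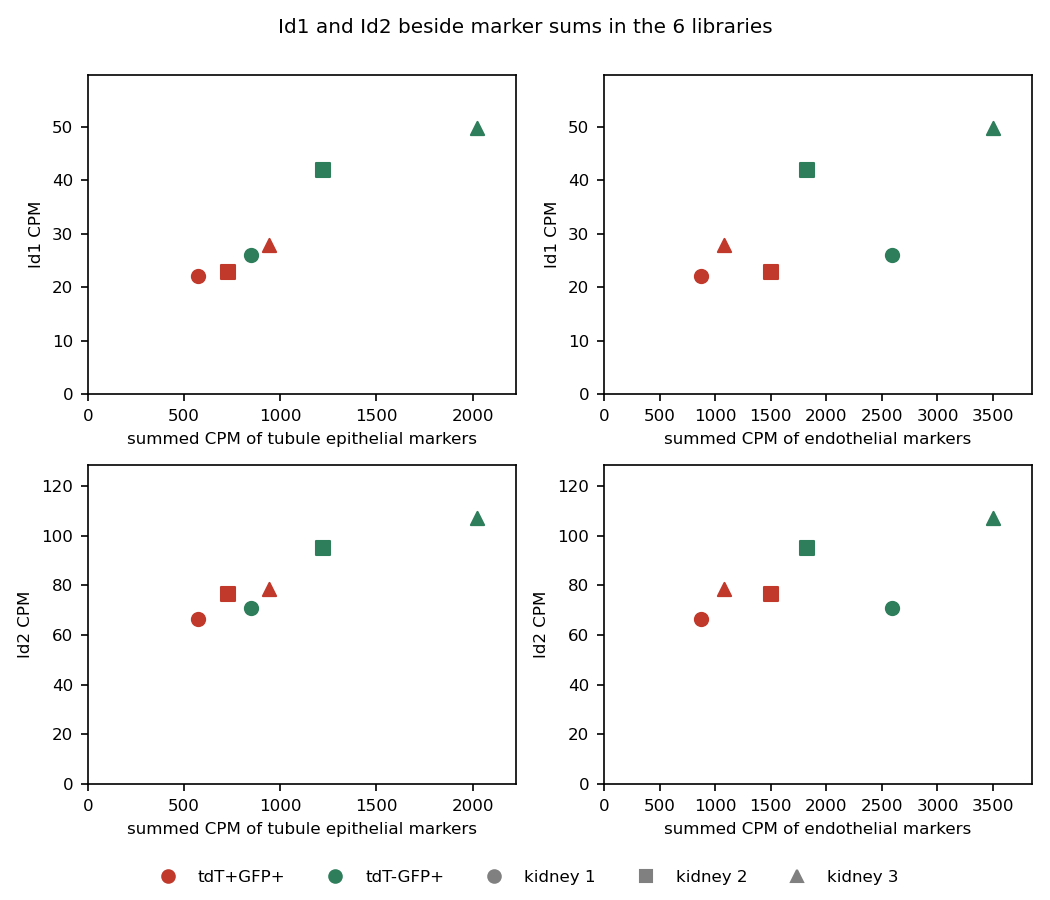
Id1 (top) and Id2 (bottom) level in CPM (y axes) against the summed CPM of 12 tubule epithelial markers (left) and 16 endothelial markers (right), for tdT+GFP+ (red) and tdT-GFP+ (green) libraries with a symbol for each kidney. The tdT-GFP+ libraries of kidneys 2 and 3 are highest for both genes and for the tubule sum, and the tdT-GFP+ library of kidney 1 has high endothelial and low Id1 values.

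Id3 was by far the most expressed Id gene and went both ways between the sorts. Id3 (ENSMUSG00000007872.3, chromosome 4, 136143497 to 136145755, plus strand) had 344, 270 and 351 CPM in tdT+GFP+ and 270, 466 and 274 CPM in tdT-GFP+ libraries. The 3 highest were tdT+GFP+ libraries 1 and 3 and tdT-GFP+ library 2, those in which Axin2 was high and Grem1 low, and the other 3 lay between 270 and 274 CPM. edgeR estimated -0.06 on the log2 scale, with SE 0.24, interval -0.64 to 0.51 at 95% and adjusted p = 0.927, turning to 0.24 without tdT-GFP+ replicate 2 and 0.35 when kidney 2 was left out. The genes that followed Id3 most closely were Socs1, Junb and Tmsb10 (r = 0.994, 0.994 and 0.992 over 6 libraries, as a description). Socs1 and Junb are known as rapidly induced genes, a feedback inhibitor of cytokine signalling and an AP-1 subunit.

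Id4 (ENSMUSG00000021379.2, chromosome 13, 48261228 to 48266026, plus strand) had the lowest level of the Id genes. It stood at 15.5, 10.6 and 19.1 CPM in tdT+GFP+ and 15.6, 24.0 and 19.6 CPM in tdT-GFP+ libraries. Kidneys 1 and 3 had nearly equal values in both sorts (log2 differences of -0.0038 and -0.04), and kidney 2 had -1.17. On the log2 scale the difference was -0.39 (SE 0.25; 95% limits -0.98 and 0.21; adjusted p = 0.554, edgeR), and -0.03 without both libraries of kidney 2. Its exons share 82 bases with the antisense gene A330033J07Rik and 171 bases with Gm49291 on the other strand.

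Per kilobase of exon, the order of the 9 members over the 6 libraries was Id3 (184 CPM per kb), Id2 (33.8), Id1 (27.4), Bmp4 (21.5), Bmp2 (6.98), Id4 (4.52), Bmper (1.15), Bmp7 (0.779) and Grem1 (0.268). Id3 stood clear of all others. The means per kb of Id2, Id1 and Bmp4 were 30.3, 20.9 and 20.4 in tdT+GFP+ cells and 37.3, 33.8 and 22.7 in tdT-GFP+ cells. Of neighbours in this order, the ranges over the 6 libraries overlapped for Id2 and Id1, Id1 and Bmp4, and Bmper and Bmp7.

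The same ranking by Pearson r of log2 CPM over the 6 libraries was made for the other members, as a description. Closest to Bmp2 were Rab5c (0.977), Usp42 (0.973), Tmem222 (0.971). Closest to Bmp4 were Plcl2 (0.994), Mcm9 (0.984), Tmco4 (0.981). Closest to Bmp7 were Got2 (0.994), Tiam1 (0.988), Carmil1 (0.986). Closest to Grem1 were Atf7 (0.989), Cd248 (0.987), Lztfl1 (0.986). Closest to Bmper were Pcyt1a (0.995), Gna13 (0.995), Dram2 (0.994). Closest to Id4 were Arhgef18 (0.997), Fbf1 (0.994), Tob2 (0.990).

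As a share of all Id transcripts per kilobase, Id1 was lower in every tdT+GFP+ library than in any tdT-GFP+ library. The share was 7.85%, 9.63% and 9.35% in tdT+GFP+ and 10.9%, 10.6% and 17.5% in tdT-GFP+ libraries 1, 2 and 3 (8.94% ± 0.955 and 13.0% ± 3.91, SD, n = 3 each). Id3 took 79.2%, 73.7% and 76.2% against 73.0%, 76.2% and 62.5%, with overlap. Counts of Id3 were 15.6, 11.8 and 12.6 times those of Id1 in tdT+GFP+ and 10.4, 11.1 and 5.51 times in tdT-GFP+ libraries. The summed Id level did not separate the sorts, at 380 to 477 CPM against 382 to 627 CPM. These within-library measures were formed after the values were seen and have no test.

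In edgeR the other genes of the pathway gave no call either. The 6 lists hold 67 further genes, of which 54 were tested and 0 passed at an adjusted p under 0.05 in edgeR. DESeq2 called 1 of the 49 to which it gave an adjusted p, Sostdc1, with and without the replicate block. Over all genes it called 1.93% without the block and 1.95% with it. Of the 54, 24 had positive and 30 negative log2 fold changes, with a median of -0.03. Values free of overlap between the sorts were seen for Gdf6 of 8 tested ligands and for Bmpr1a and Neo1 (lower) of 11 tested receptor genes. Sostdc1 and Fst had them among 17 tested modulators. No tested gene of the Smad, target and E protein lists did, beside 15.8% of all genes. At an unadjusted p under 0.05 in edgeR, 2 were higher and 1 was lower, 5.56% of those tested against 10.7% of all genes.

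Among 20 other secreted modulators (17 tested, 7 positive, median -0.05), all 3 of these genes stood: Sostdc1, Fst and Fstl3. Sostdc1, a BMP and Wnt antagonist known from the distal tubule, had 4.67, 4.58 and 8.37 CPM in tdT+GFP+ and 8.56, 14.8 and 15.9 CPM in tdT-GFP+ libraries. The sorts did not overlap, although tdT+GFP+ library 3 and tdT-GFP+ library 1 were close. In edgeR the log2 fold change came to -1.16 with an SE of 0.33, a 95% interval of -1.96 to -0.36 and an adjusted p of 0.414. DESeq2 called it, at an adjusted p of 0.0485, or 0.00891 under the replicate block. The distal tubule genes Slc12a3 and Calb1 were also lower in every tdT+GFP+ library, at 12.5 to 14.9 against 20.2 to 60.8 CPM and 2.99 to 7.57 against 8.79 to 16.7 CPM. Picked after their values were seen, they were the only 2 of 12 tubule markers without overlap. Of all genes, 8.6% were lower without overlap. The collecting duct gene Aqp2 overlapped, at 8.02, 6.41 and 24.2 against 10.9, 22.8 and 13.3 CPM. Slc34a1 and Slc5a2 had positive log2 fold changes (0.25 and 1.31). What part distal tubule RNA had in the Sostdc1 difference was not tested.

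The activin and BMP binding follistatin genes Fst and Fstl3 had positive values. Fst had 25.8, 29.3 and 22.1 CPM in tdT+GFP+ and 21.7, 16.7 and 19.9 CPM in tdT-GFP+ libraries, without overlap but with 22.1 and 21.7 CPM as nearest values. Its log2 fold change was 0.40 (SE 0.14, edgeR adjusted p = 0.440). Fstl3 had 93.0, 100 and 78.4 against 83.4, 52.8 and 48.2 CPM, with overlap and a log2 fold change of 0.56 (SE 0.22, edgeR adjusted p = 0.455). Without kidney 2 Fst had 0.20, and without tdT-GFP+ library 1 Fstl3 had 0.85. Sost, a sclerostin gene at 0.0761 to 1.48 CPM, had -1.87 (SE 0.91, edgeR adjusted p = 0.491), ranging from -3.73 to -0.85 when libraries were left out. The abundant Fstl1 had 0.27 (SE 0.17, adjusted p = 0.551).

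**Figure D4:**
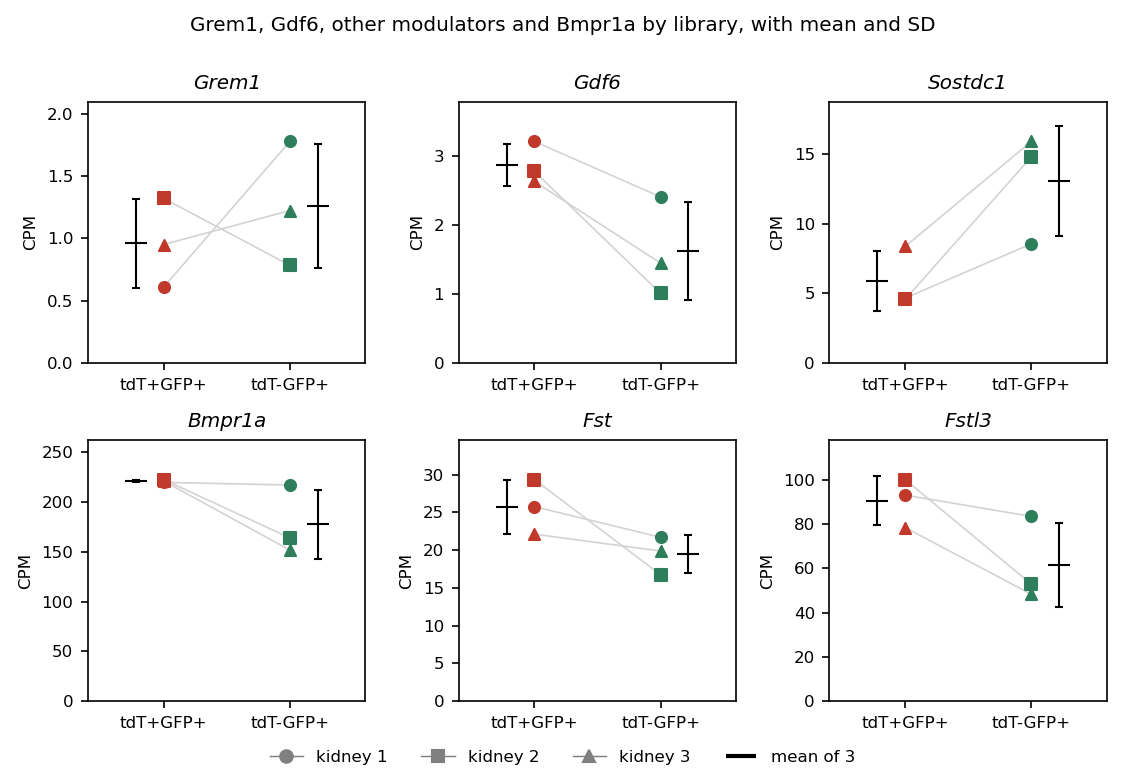
Level in CPM (y axis, from 0) of Grem1, the ligand gene Gdf6, Sostdc1, the receptor gene Bmpr1a, Fst and Fstl3 in the 3 tdT+GFP+ (red) and 3 tdT-GFP+ (green) libraries, with grey lines joining the same kidney and black bars for mean and SD of 3. Sostdc1 rises toward tdT-GFP+ in every kidney and Bmpr1a is nearly constant among tdT+GFP+ libraries, while Grem1 is higher in tdT+GFP+ only in kidney 2.

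Of the 12 receptor and co-receptor genes 11 were tested, 4 with positive values (median -0.06). Bmpr1a, the type I receptor of BMP2 and BMP4, had 220, 223 and 221 CPM in tdT+GFP+ and 217, 164 and 152 CPM in tdT-GFP+ libraries. The tdT+GFP+ libraries were nearly equal, and tdT-GFP+ library 1 lay just below them, so the ranges met without overlap. edgeR estimated 0.32 on the log2 scale, with SE 0.14, interval -0.01 to 0.65 at 95% and adjusted p = 0.471, and 0.50 without tdT-GFP+ replicate 1. The type II receptor gene Bmpr2 had 0.27 (SE 0.19), from 0.02 without kidney 2 to 0.49 without tdT-GFP+ library 1. The receptor gene Acvrl1 and co-receptor gene Eng, known from endothelial cells, had -0.15 (SE 0.09) and -0.16 (SE 0.11). Eng was at 717 to 814 against 778 to 914 CPM. The 16 endothelial markers had a median of -1.27, and which cells carried the Acvrl1 and Eng RNA was not tested.

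The Smad and ubiquitin ligase list (6 tested, 5 positive, median 0.08) lay between -0.20 and 0.13, with 0.11 (SE 0.10) for Smad1 and 0.10 (SE 0.09) for the shared partner Smad4. Smad5, the most abundant of them, had 0.02 (SE 0.09), and the ligase genes Smurf1 and Smurf2 had 0.13 (SE 0.12) and 0.07 (SE 0.11). The E protein genes, whose products the Id proteins hold, had -0.06 (SE 0.07) for Tcf3, 0.04 (SE 0.09) for Tcf12 and -0.0027 (SE 0.11) for Tcf4, and the sign of Tcf4 turned under no filter, limma-voom and the replicate block.

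Among 14 other BMP and GDF ligands 8 were tested, 3 of them positive (median -0.18). Gdf6 had 3.20, 2.77 and 2.63 CPM in tdT+GFP+ and 2.40, 1.01 and 1.45 CPM in tdT-GFP+ libraries, without overlap (log2 fold change 0.82, SE 0.34, edgeR adjusted p = 0.466). Bmp3, an atypical ligand that opposes BMP signalling, had 1.16, 1.45 and 3.69 against 3.23, 3.62 and 6.93 CPM, with overlap (-1.14, SE 0.52, edgeR adjusted p = 0.483). It ran from -1.80 without tdT+GFP+ library 3 to -0.71 without tdT-GFP+ library 3. Gdf10 was at 51.6 CPM in tdT+GFP+ library 2 and 43.3 and 49.8 CPM in tdT-GFP+ libraries 1 and 3, and at 12.8 to 13.6 CPM in the other 3. Bmp5 and Bmp8a were below 1 CPM in every library, with -1.21 (SE 0.91) and 0.56 (SE 0.47). Leaving out libraries moved Bmp5 between -2.57 and -0.56 and Bmp8a between 0.04 and 1.16. Gdf10 was thus low where Id3 was high, and its log2 fold change of -0.44 (SE 0.70) had an edgeR adjusted p of 0.806.

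The other BMP targets (12 listed, 9 tested, 4 positive, median -0.05) gave no call. The inhibitory Smad genes Smad6 and Smad7 had -0.07 (SE 0.09) and -0.05 (SE 0.07). Atoh8, a helix-loop-helix factor, had 18.2, 14.7 and 32.6 CPM in tdT+GFP+ and 21.7, 53.3 and 28.4 CPM in tdT-GFP+ libraries, a log2 fold change of -0.66 (SE 0.42, edgeR adjusted p = 0.553). The pseudoreceptor gene Bambi had -0.36 (SE 0.28), Msx1 had -1.14 (SE 0.67) and the osteogenic factor gene Runx2 had 0.25 (SE 0.16). Atoh8, Bambi and Msx1 each had their highest value in tdT-GFP+ library 2 and their lowest in tdT+GFP+ library 2, as Id4 did. Without both libraries of kidney 2 Atoh8 had 0.01, Bambi 0.10 and Msx1 -0.14.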

How the data were processed

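Poly(A) RNA of 6 sorted cell populations was sequenced. Per the file headers, the authors deposited RSEM estimated counts, here all whole numbers. The submitters' processing notes name STAR 2.6.1 and RSEM 1.2.28 among the tools, and mm10 beside GRCh38 as builds, with no roles given. The 92 ERCC rows were 0 in all libraries and were left out. Genes were filtered with filterByExpr, scaled by TMM and tested across all genes with edgeR 4.0.16 (glmQLFit, robust; glmQLFTest; R 4.3.3) on group alone, with Benjamini-Hochberg adjustment over 15462 genes and a threshold of 0.05. Each SE was obtained as the size of the coefficient over the root of its F statistic. Kidney differences and correlations used log2 CPM with a prior count of 2. A count of 3 was 0.0915 to 0.114 CPM. P-values measure the spread between these libraries only. Exon lengths and positions are from GENCODE M21 (GRCm38), matched by gene identifier, and promoter windows from RefSeq (GRCm38.p6).

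Members and lists were chosen with earlier results of these data known. All members were described. Other pathway genes were named by a rule (up to 4 per list with the smallest p, the most abundant, and any at an unadjusted p under 0.05), with Axin2 and Acta2, and marker lists were given as sums. Smad6, Neo1, Pi16, Pdgfra, Umod, Slc34a1, Lrp2, Slc5a2, Slc12a3, Calb1 and Aqp2 were named after their values were seen.

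Alternatives were RLE and upper-quartile factors, no filter, limma-voom 3.58.1, DESeq2 1.42.0, a filter of 1 CPM in 3 libraries, the kidney as a replicate block, and leaving out each library or kidney. A tubule marker sum without Umod was added after seeing the data. The procedure was tested on simulated data. Same-numbered libraries share a kidney per the labels, which pairs them, yet deviations from group means correlated by 0.04, -0.58 and -0.30 in kidneys 1, 2 and 3, and by 0.448 and 0.444 between tdT+GFP+ 2 and tdT-GFP+ 3 and between tdT+GFP+ 3 and tdT-GFP+ 2. Such deviations sum to 0 within each group, so these correlations are tied to one another and are not separate evidence. Values per kidney rest on the labelled numbers.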

Additional observations from a re-analysis of the deposited data

How the results depend on the processing

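Over 17 alternatives no member was called, and Bmp4, Id1, Id2 and Id4 kept a negative sign in each. Leaving out a library or kidney gave 0 to 2 members at an unadjusted p under 0.05, and the replicate block in edgeR gave 2. The members' median ran from -0.34 to -0.17 and that of the other ligands from -0.42 to 0.0805 when libraries were left out. Over all genes DESeq2 called 17 higher and 264 lower, and 41 and 237 with the replicate block. Signs turned when libraries were left out for Tcf4 (-0.10 to 0.14), Id3 (-0.26 to 0.35), Bmp2 (-0.13 to 0.0782), Axin2 (-0.38 to 0.72), Tcf12 (-0.0644 to 0.14), Smad7 (-0.0948 to 0.0472), Smurf2 (-0.0386 to 0.21), Smad5 (-0.0505 to 0.12), Bmp7 (-0.60 to 0.13), Grem1 (-0.96 to 0.20), Gdf10 (-1.82 to 0.20), Bmper (-0.22 to 0.99), Atoh8 (-1.19 to 0.0132) and Bambi (-0.73 to 0.10). Values kept their sign but moved by over 1.5 times for Gdf6 (0.56 to 1.24), Fstl1 (0.16 to 0.49), Acvrl1 (-0.26 to -0.075), Eng (-0.28 to -0.047), Smad1 (0.044 to 0.21), Smad4 (0.036 to 0.21), Smad6 (-0.13 to -0.025), Smurf1 (0.024 to 0.29), Tcf3 (-0.11 to -0.019) and Runx2 (0.12 to 0.43). The same held for the members Id4 (-0.60 to -0.03), Bmp4 (-0.25 to -0.04) and Id2 (-0.44 to -0.17), and for Acta2 (0.24 to 0.76). It held too for Bmpr2 (0.02 to 0.49), Msx1 (-2.02 to -0.14), Fst (0.20 to 0.52), Fstl3 (0.37 to 0.85) and Bmpr1a (0.21 to 0.51). Bmp3, Sost, Bmp5 and Bmp8a also moved so, with ranges given above. Tcf4 also turned, to 0.000824 with no filter, 0.00668 with limma-voom, 0.00252 with replicate block, edgeR, 0.000804 with replicate block, DESeq2. Each range is over fits with a library or a kidney left out, which have fewer samples, and the cause of its width was not tested. The cause of the Tcf4 turns was not tested either. DESeq2 without and with the replicate block called Sostdc1 lower, and the block ended no call of edgeR, which made none. At 20 to 54 counts for Grem1 and 60 to 145 for Bmp7, counting error adds to the spread between libraries.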
